A study of Homo sapiens with 24 samples.

Results

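Kinesins are motor proteins that use ATP to walk along microtubules or to take their ends apart. The array carried probes for 41 kinesin genes among 25992 gene names, chosen by symbol alone (KIF or KIFC, a number and at most 1 letter A to C), and each gene was represented by its brightest probe. They were grouped by role, with earlier results of these data known, into 12 mitotic kinesins, 17 transport kinesins and 12 others. A further 2 symbols that start with KIF were left out, the antisense transcript KIF25-AS1 and the adaptor KIFAP3. Of the 41 genes, 38 passed the filter on dim probes and were tested, including every mitotic and every transport kinesin. KIF19, KIF2B and KIF6 were well above background on 0 of 24 arrays and were not tested.

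A549 and H1975 are human lung adenocarcinoma cell lines. Cells of each line received 0.75 mg/ml Pirfenidone, an antifibrotic drug given for idiopathic pulmonary fibrosis, or the matching volume of PBS for 6 h or 24 h. Each of the 8 groups had 3 samples, each on 1 one-color Agilent array. Nothing in the labels says whether the 3 samples of a group were separate cultures, so the p-values measure only the spread between these samples.

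The 24 arrays came from 4 runs, a run being the date carried with an array, whose meaning is not stated, and from 7 slides. Arrays of A549 and H1975 never shared a slide, run 2 held only A549 and run 4 held only H1975. Each combination of treatment and time had its own fixed place on the slides. Between 62.7% and 69.5% of probes were well above background per array, and the number of arrays limits the precision. AKR1B10, a gene that A549 expresses strongly, lay between 6.88 and 7.28 on the A549 arrays and between -3.39 and -1.35 on the H1975 arrays, on the log2 scale defined next. CDKN2A, whose locus is deleted in A549, read between -2.33 and -0.88 there and was still well above background, against 2.37 to 3.07 in H1975. The epithelial markers EPCAM, KRT8, KRT18, KRT19 and CDH1 were above background on every array. Of the markers of other cells, DCN was above it on 0 arrays, CD3E on 1, PTPRC on all 12 A549 and 11 H1975 arrays, COL1A2 on 0 A549 and all 12 H1975 arrays, and COL1A1 and CD14 on all 24. Their part in the results was not tested. The 2 A549 arrays of replicate 3 at 24 h read against the other replicates for mitotic genes, as described below with values. Their labels were kept as given, and whether the labels of these 2 arrays were exchanged was not tested.

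All levels below are log2 signals minus the 75th percentile of the array. They can be compared between samples for 1 probe but not between probes. Replicates are given in the order 1, 2 and 3. A kinesin passed when its Benjamini-Hochberg adjusted p in the limma fit was 0.05 or less and its log2 fold change was at least 1 in size.

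In dividing cells, mitotic kinesins build and take down the spindle. KIF11 pushes the spindle poles apart, KIF18A and KIF2C shorten microtubules at the kinetochores, KIF4A and KIF22 act on chromosome arms, and KIF20A, KIF23 and KIF14 act at the midzone and in cytokinesis. Most of their genes are transcribed late in the cell cycle, in G2 and M phase. Transport kinesins work mainly between divisions. The KIF5 motors carry organelles and vesicles, the KIF1 and KIF13 motors carry vesicles, and the KIF3 and KIF17 motors serve cilia and other cargo.

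In H1975 cells at 24 h, the mitotic kinesins were lower with Pirfenidone, and the transport kinesins were not. A total of 9 of 12 mitotic kinesins fell, none rose, and all 12 had a negative log2 fold change, with a median of -1.25 and a range of -1.63 to -0.75. Over all 23827 probes tested, 1.003% passed as lower, 1.89% passed in either direction, and the median log2 fold change was 0.02. None of the 17 transport kinesins passed, and their median was 0.20. For 5 of them every treated array lay above every PBS array (KIF13B, KIF17, KIF1B, KIF21A and KIF3C), a pattern of 16.3% of all probes. The groups did not overlap for 11 of 12 mitotic kinesins, all lower with Pirfenidone, where 15.6% of all probes had the same pattern. RNA was taken from whole cultures, so fewer cells in mitosis and less of each RNA per cell cannot be told apart.

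**Figure D1:**
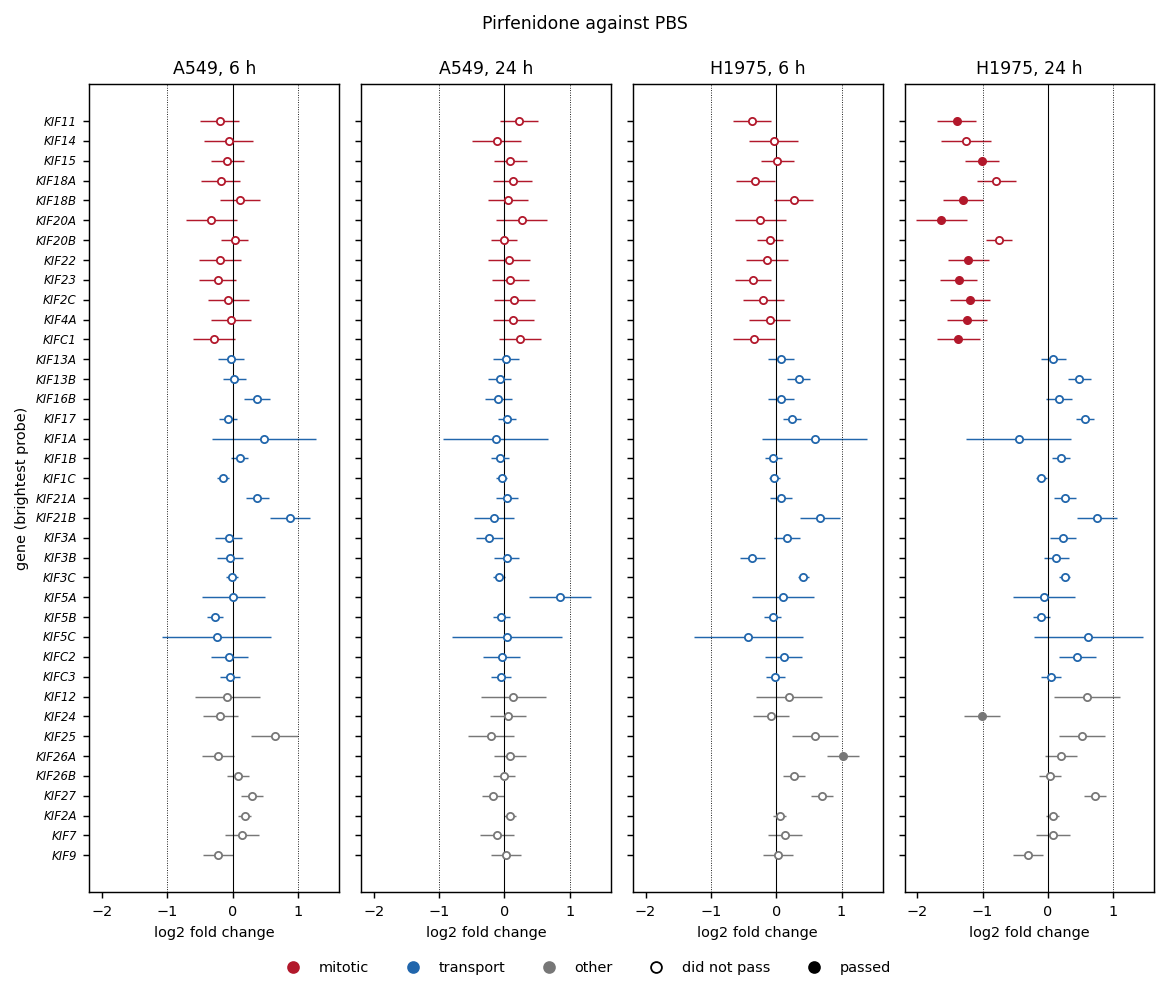
Log2 fold change of 38 kinesins (rows) for Pirfenidone against PBS in the 4 comparisons of 3 arrays against 3; bars are standard errors of the limma fit, filled points passed, and dotted lines mark -1 and 1. In H1975 at 24 h all 12 mitotic kinesins lie left of 0, between -1.63 and -0.75, while the transport kinesins lie between -0.45 and 0.75.

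KIF20A, which brings the chromosomal passenger complex to the midzone, had the largest fall. Its levels were 1.007, 1.005 and 0.799 with PBS and -0.31, -0.35 and -1.42 with Pirfenidone. The groups did not overlap, and treated replicate 3 was the lowest. The log2 fold change was -1.63 (SE 0.39, adjusted p = 0.0200 in limma), or 3.10-fold lower. The probe stood on 10 spots per array, whose median SD was 0.05 on the log2 scale.

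KIF11, the target of spindle poisons such as ispinesib, read 1.28, 1.11 and 0.82 with PBS and 0.051, -0.032 and -0.998 with Pirfenidone. The log2 fold change was -1.40 (SE 0.29, adjusted p = 0.0109). KIFC1, a minus-end motor that focuses spindle poles, read 0.72, 0.44 and 0.45 with PBS. With Pirfenidone it read -0.46, -0.59 and -1.44, a log2 fold change of -1.37 (SE 0.32, adjusted p = 0.0193). For both genes every treated array lay below every PBS array, and treated replicate 3 was again the lowest.

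KIF23, part of the centralspindlin complex, read 2.89, 2.86 and 2.82 with PBS and 1.77, 1.69 and 1.01 with Pirfenidone. It had the smallest adjusted p of the kinesins in this comparison (log2 fold change -1.37, SE 0.28, adjusted p = 0.0103), and a second KIF23 probe gave -1.35. KIF18B, which destabilizes astral microtubules, was dim. It read -5.48, -6.10 and -5.93 with PBS and -7.18, -7.39 and -6.86 with Pirfenidone, where 1 of 3 arrays was well above background. Its log2 fold change was -1.30 (adjusted p = 0.0183), whereas a second KIF18B probe gave -0.51 (adjusted p = 0.160), so the size of its fall is uncertain.

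KIF4A, a chromokinesin that also acts at the midzone, read 1.488, 1.444 and 1.499 with PBS and 0.53, 0.37 and -0.19 with Pirfenidone (log2 fold change -1.24, adjusted p = 0.0244). A second KIF4A probe gave -1.25. KIF4B is a near-identical copy of KIF4A, so the probe may read both. KIF22, a chromokinesin that binds DNA, read 1.74, 1.80 and 1.98 with PBS and 0.90, 0.76 and 0.20 with Pirfenidone (log2 fold change -1.22, adjusted p = 0.0310). A second KIF22 probe gave -1.22, and another, designed on the transcript ENST00000563666, gave 0.01.

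KIF2C, a microtubule depolymerase at centromeres, read 2.90, 2.80 and 2.92 with PBS and 1.98, 1.84 and 1.21 with Pirfenidone (log2 fold change -1.20, adjusted p = 0.0286). KIF15, a spindle motor that can stand in for KIF11, was the other mitotic kinesin that fell (log2 fold change -1.01, adjusted p = 0.0255). The other 3 mitotic kinesins did not pass. KIF14 had a log2 fold change of -1.25 with an adjusted p of 0.0540. KIF20B had -0.75 with an adjusted p of 0.0338, and a second KIF20B probe passed with -1.17 (adjusted p = 0.0106). KIF18A had -0.79 with an adjusted p of 0.130, and its groups overlapped.

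KIF24, a centriolar kinesin that restrains cilium formation, was the remaining kinesin that fell. It read -1.09, -0.89 and -0.67 with PBS and -1.78, -1.65 and -2.23 with Pirfenidone (log2 fold change -1.01, SE 0.27, adjusted p = 0.0345). KIF2A, a depolymerase related to KIF2C but expressed through the cell cycle, had a log2 fold change of 0.07 (adjusted p = 0.749).

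The count rested on few arrays. Without Pirfenidone replicate 3 it was 0 of 38 kinesins, without PBS replicate 1 it was 1, without PBS replicate 3 it was 3, and without PBS replicate 2 it was 4. The same omissions left 104, 231, 275 and 330 of all probes passing, against 451 in the full fit. Without Pirfenidone replicate 1 the count was 9 kinesins, and without Pirfenidone replicate 2 it was 8. Over all 6 omissions the mitotic median stayed between -1.35 and -1.04. With only the 6 arrays compared 1 kinesin passed, with the Holm adjustment 0, and with normexp background correction 4. Those settings left 143, 33 and 172 of all probes passing. No setting tried made a mitotic kinesin positive in this comparison.

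**Figure D2:**
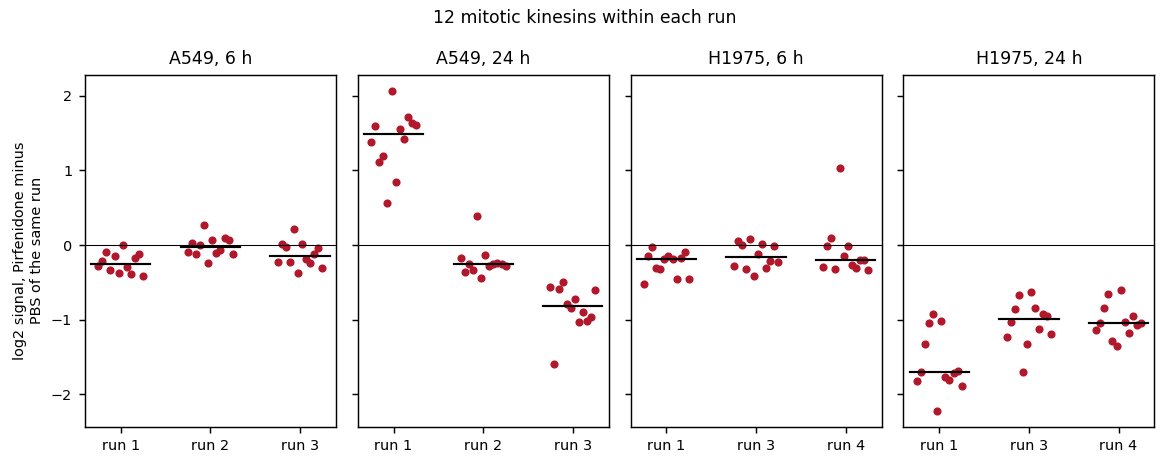
Log2 signal of 12 mitotic kinesins with Pirfenidone minus that with PBS of the same run, 1 point per gene, with black bars at the median of the 12 genes; runs are in numerical order and have no rank. In H1975 at 24 h the 3 medians are -1.70, -0.99 and -1.04, while in A549 at 24 h they are 1.49, -0.25 and -0.81.

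Each run held both treatments, so the difference could be read within it. Each combination of treatment and time had its own place on the slides in both lines. Drug and place on the slide therefore cannot be told apart. In H1975 at 24 h all 12 mitotic kinesins were lower with Pirfenidone in each of the 3 runs, with medians of -1.70 in run 1, -0.99 in run 3 and -1.04 in run 4. The transport medians of the same pairs were 0.23, 0.09 and 0.20. The PBS array of run 3 was alone on its slide, so that pair was not on 1 slide.

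Genes outside the 41 chosen by symbol that work with the mitotic kinesins had similar values. Of 14 spindle partners, 11 fell in H1975 at 24 h, with a median of -1.26. Of all probes, 1.003% passed as lower there and 1.89% in either direction, and the median was 0.02. The spindle partners that fell include AURKA (-1.38), PRC1 (-1.34), CENPE, itself a kinesin by structure under another name (-1.34), PLK1 (-1.36) and the mitotic cyclin CCNB1 (-1.18). None of the 11 transport partners, among them the kinesin light chains and the mitochondrial adaptors TRAK1 and RHOT1, passed, and their median was 0.04. The partner lists were written with earlier results of these data known.

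The promoters of the mitotic kinesins shared sequence features. These were not used to choose the genes, but genes grouped by a mitotic role are mostly genes of G2 and M phase. The contrast is therefore a description and not independent support. Many genes of G2 and M phase carry a cell cycle genes homology region (CHR, TTTGAA or TTCGAA), read by the DREAM complex and by MYBL2 and FOXM1 with the MuvB core. Near it there is often a CCAAT box, read by NF-Y. Both were searched on both strands in RefSeq promoter windows of GRCh38.p14, from 250 bases before to 50 after each start. Of 12 mitotic kinesins 10 held a CHR and 10 a CCAAT, and 9 held both. Of 12 transport kinesins with a window 1 held a CHR, and 4 held a CCAAT. Over 27305 genes, 19.5% held a CHR, 39.7% a CCAAT and 9.02% both. No window was matched for KIF5A, KIF13B, KIF21B, KIFC2, KIFC3, KIF19, KIF26B or KIF27.

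The 100 bases before the start are shown for 7 mitotic kinesins, 5 with a CHR there and the 2 without one in the window, and for 2 transport kinesins as a contrast. Capitals mark CHR or CCAAT letters, read on either strand.
KIF11 (chr10:92593030-92593129, plus strand): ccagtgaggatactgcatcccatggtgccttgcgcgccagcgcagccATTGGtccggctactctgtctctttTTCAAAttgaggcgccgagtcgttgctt
KIF4A (chrX:70290004-70290103, plus strand): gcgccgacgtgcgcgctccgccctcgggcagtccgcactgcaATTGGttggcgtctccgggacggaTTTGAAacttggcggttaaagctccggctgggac
KIF23 (chr15:69414249-69414348, plus strand): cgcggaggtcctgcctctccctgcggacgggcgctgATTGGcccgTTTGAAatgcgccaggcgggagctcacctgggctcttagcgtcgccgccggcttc
KIF18A (chr11:28108157-28108256, minus strand): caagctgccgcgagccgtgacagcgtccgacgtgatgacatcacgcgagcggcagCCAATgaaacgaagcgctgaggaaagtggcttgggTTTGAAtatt
KIF15 (chr3:44761694-44761793, plus strand): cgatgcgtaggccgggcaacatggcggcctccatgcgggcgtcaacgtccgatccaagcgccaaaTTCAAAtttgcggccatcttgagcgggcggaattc
KIF20A (chr5:138179012-138179111, plus strand): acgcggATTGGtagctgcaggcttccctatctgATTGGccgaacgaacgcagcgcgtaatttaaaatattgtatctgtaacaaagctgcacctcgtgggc
KIF2C (chr1:44739737-44739836, plus strand): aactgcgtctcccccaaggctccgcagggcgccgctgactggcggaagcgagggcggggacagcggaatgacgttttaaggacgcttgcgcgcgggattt
KIF3A (chr5:132737547-132737646, minus strand): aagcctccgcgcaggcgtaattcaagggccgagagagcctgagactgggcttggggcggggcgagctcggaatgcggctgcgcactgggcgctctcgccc
KIF1C (chr17:4997850-4997949, plus strand): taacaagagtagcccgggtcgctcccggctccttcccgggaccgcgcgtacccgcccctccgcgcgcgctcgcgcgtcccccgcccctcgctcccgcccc

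The CHR began 28 bases before the start in KIF11, 34 in KIF4A, 55 in KIF23, 10 in KIF18A and 35 in KIF15. In KIF11 and KIF4A a CCAAT box read on the other strand lay upstream of it, 53 and 58 bases before the start. KIF20A, which fell the most, had 2 CCAAT boxes and no CHR, and KIF2C had neither. In KIF14, KIF18B, KIFC1 and KIF20B the CHR letters lay after the start. KIF24, the kinesin outside the mitotic list that fell, was the 1 of 9 other kinesins with a window that held both. The exception among transport kinesins was KIF5B, with CHR letters 140 bases before the start and a log2 fold change of -0.10 in H1975 at 24 h. A match is a run of letters and does not show that a factor binds there.

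The transport kinesins in H1975 at 24 h ranged from -0.45 to 0.75. KIF17, a dendritic and ciliary motor, read -3.29, -3.27 and -3.34 with PBS and -2.71, -2.64 and -2.82 with Pirfenidone. Its groups did not overlap and its adjusted p was 0.0213, but its log2 fold change of 0.57 (SE 0.14) was under the limit of 1. KIF21B, a motor that limits microtubule growth, had the largest difference of the list. It read -2.46, -2.44 and -1.59 with PBS and -1.67, -1.66 and -0.90 with Pirfenidone, a log2 fold change of 0.75 (SE 0.30, adjusted p = 0.148), and the groups overlapped. KIF5C, a neuronal form of conventional kinesin, read -7.66, -6.96 and -9.39 with PBS and -6.08, -6.69 and -9.38 with Pirfenidone. It was well above background on 0 PBS and 2 treated arrays, and no fold is given.

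KIF5B, the ubiquitous form of conventional kinesin, had a small difference. It read 2.33, 2.44 and 2.07 with PBS and 2.23, 2.29 and 2.03 with Pirfenidone (log2 fold change -0.10, SE 0.13). KIF1C had -0.10 (SE 0.09), KIF3A 0.24 (SE 0.20) and KIF3B 0.13 (SE 0.19), none with an adjusted p under 0.05. KIF27, a relative of KIF7 linked to motile cilia, read -5.06, -4.94 and -5.12 with PBS and -4.52, -4.53 and -3.91 with Pirfenidone, with a log2 fold change of 0.72 and an adjusted p of 0.0177. By adjusted p alone, 11 kinesins were lower and 2 higher, against 3.35% and 2.91% of all probes.

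**Figure D3:**
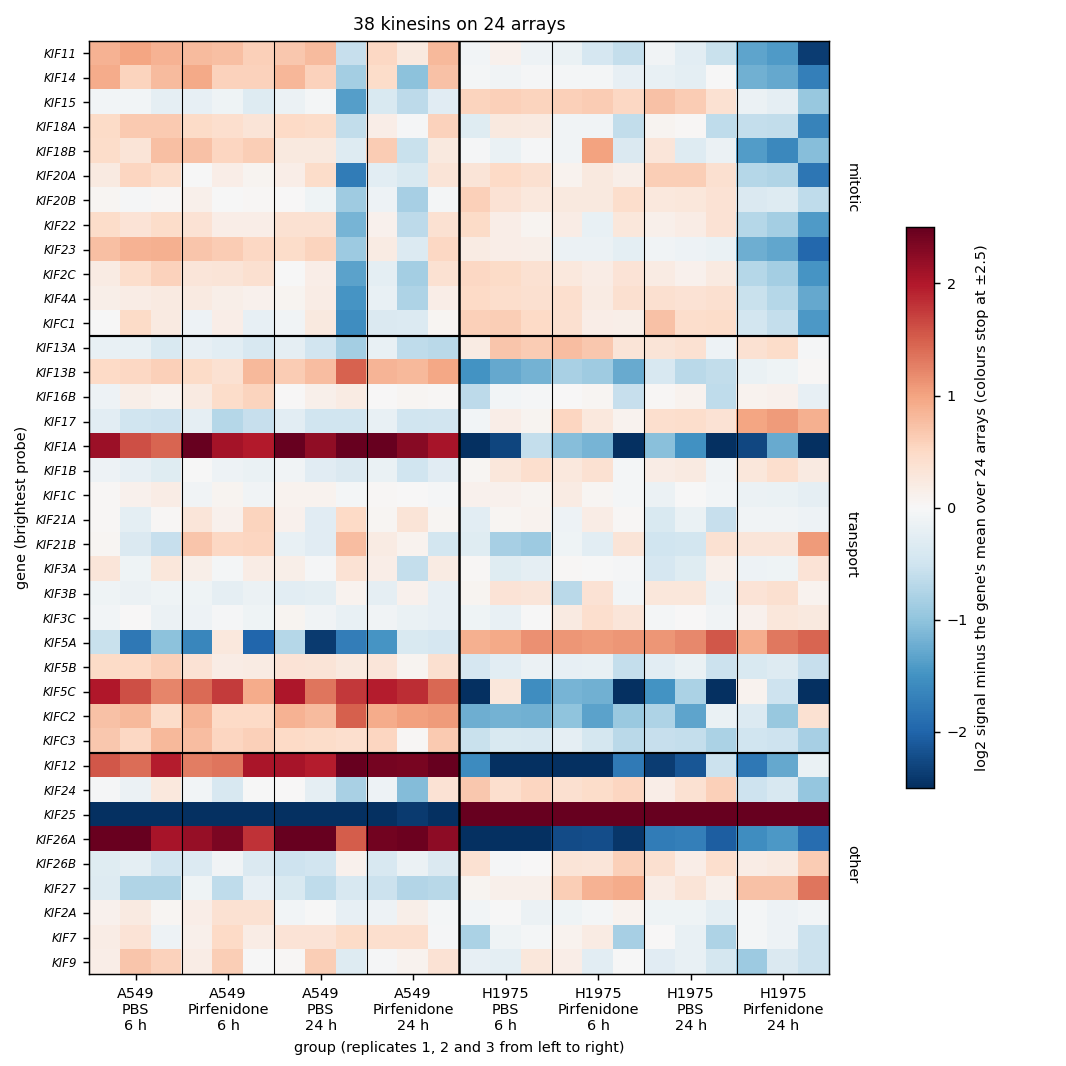
Log2 signal of 38 kinesins (rows) on 24 arrays (columns, 3 per group) minus the mean of the gene over the 24 arrays, with colors that stop at 2.5 in either direction; horizontal lines part mitotic, transport and other kinesins, and vertical lines part the groups. The mitotic rows are blue in the 3 H1975 arrays with Pirfenidone at 24 h and in A549 PBS replicate 3 at 24 h, and the KIF25, KIF26A, KIF12, KIF1A and KIF5C rows split by line.

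At 6 h in H1975 no mitotic kinesin passed. Their median was -0.17, against 0.05 over all probes, and 10 of 12 were negative. KIF11 read 1.30, 1.48 and 1.26 with PBS and 1.21, 0.96 and 0.78 with Pirfenidone (log2 fold change -0.37, adjusted p = 0.775). KIF23 read 3.20, 3.15 and 3.14 with PBS and 2.84, 2.84 and 2.74 with Pirfenidone (-0.35). KIFC1 read 0.58, 0.62 and 0.49 with PBS and 0.39, 0.16 and 0.13 with Pirfenidone (-0.34). For all 3 genes each treated array lay below each PBS array. In all, 5 of 12 mitotic kinesins did not overlap and were lower, against 7.14% of all probes. The difference between the 24 h and the 6 h response of H1975 had a median of -1.03 over the mitotic kinesins, with none of the 12 passing, where 0.00420% of all probes passed as lower (KIF20A -1.38, SE 0.55, adjusted p = 0.727).

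KIF26A, an unusual kinesin without motor activity, was the 1 kinesin that rose in H1975 at 6 h, where 0.399% of all probes passed as higher. It read -7.61, -7.38 and -7.09 with PBS and -6.28, -6.26 and -6.47 with Pirfenidone (log2 fold change 1.02, SE 0.25, adjusted p = 0.0443). Only 1 of the 3 PBS arrays was well above background. The call held in 7 of 20 other settings and was lost whenever 1 of the 6 arrays was left out. KIF26A also rose in PBS alone between 6 h and 24 h in H1975, to -5.79, -5.75 and -6.10 (log2 fold change 1.48, adjusted p = 0.00642), where 0.231% of all probes passed as higher. At 24 h Pirfenidone and PBS differed by 0.20 (adjusted p = 0.710).

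Among transport kinesins in H1975 at 6 h, KIF3C, a partner of KIF3A, read 0.36, 0.26 and 0.44 with PBS and 0.68, 0.87 and 0.77 with Pirfenidone. The groups did not overlap and the adjusted p was 0.0244, but the log2 fold change was 0.42, and a second KIF3C probe gave 0.32 (adjusted p = 0.675). KIF21B read -2.27, -2.81 and -2.88 with PBS and -2.07, -2.23 and -1.65 with Pirfenidone (log2 fold change 0.67, adjusted p = 0.407). KIF1A read -9.34, -6.91 and -5.21 with PBS and -5.68, -5.77 and -8.24 with Pirfenidone (0.59). The groups of KIF21B did not overlap and those of KIF1A did. KIF5C read -9.31, -5.89 and -7.72 with PBS and -7.33, -7.37 and -9.50 with Pirfenidone, and was well above background on 1 PBS and 0 treated arrays. KIF27 had 0.71 with an adjusted p of 0.0419, so 3 kinesins were higher by adjusted p alone, against 1.04% of all probes.

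In A549 no kinesin passed at 6 h or at 24 h, where 0.176% and 0.0126% of all probes passed in either direction. An unadjusted p under 0.05 was reached by 1433 and 227 of 23827 probes. The 24 h arrays include those of replicate 3 described below, so the lack of calls there does not show a lack of response. At 6 h the mitotic median was -0.13, against -0.01 over all probes. KIF20A read 0.63, 0.93 and 0.83 with PBS and 0.39, 0.56 and 0.46 with Pirfenidone, a log2 fold change of -0.33 (SE 0.39). KIF23 read 3.74, 3.85 and 3.88 with PBS and 3.68, 3.61 and 3.498 with Pirfenidone (-0.23). KIFC1 read -0.01, 0.47 and 0.21 with PBS and -0.13, 0.15 and -0.20 with Pirfenidone (-0.28). The groups of KIF20A and KIF23 did not overlap and those of KIFC1 did. In all, 4 of 12 mitotic kinesins were lower without overlap, against 8.23% of all probes. KIF21B again had the largest transport difference. It read -1.92, -2.34 and -2.54 with PBS and -1.28, -1.45 and -1.44 with Pirfenidone (log2 fold change 0.88, SE 0.30, adjusted p = 0.464), and the groups did not overlap. KIF1A read -2.46, -2.99 and -3.15 with PBS and -2.03, -2.52 and -2.62 with Pirfenidone (0.48), and its groups overlapped. KIF21A read -2.71, -2.97 and -2.71 with PBS and -2.44, -2.63 and -2.18 with Pirfenidone (0.38).

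At 24 h in A549 the samples of replicate 3 stood apart. The mean of the 12 mitotic kinesins, each relative to its mean over 24 arrays, was 0.26 and 0.33 in PBS replicates 1 and 2 and -1.07 in PBS replicate 3. With Pirfenidone it was 0.04, -0.52 and 0.32. So PBS replicate 3 was the lowest of the 6 arrays, and treated replicate 3 was just below the highest. KIF20A showed the same, with 0.57, 0.85 and -1.36 with PBS and 0.13, 0.01 and 0.71 with Pirfenidone. KIF11 read 2.06, 2.18 and 0.80 with PBS and 1.89, 1.61 and 2.18 with Pirfenidone. KIFC1 read -0.09, 0.25 and -1.55 with PBS and -0.37, -0.35 and 0.05 with Pirfenidone. The groups overlapped for all 3 genes.

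**Figure D4:**
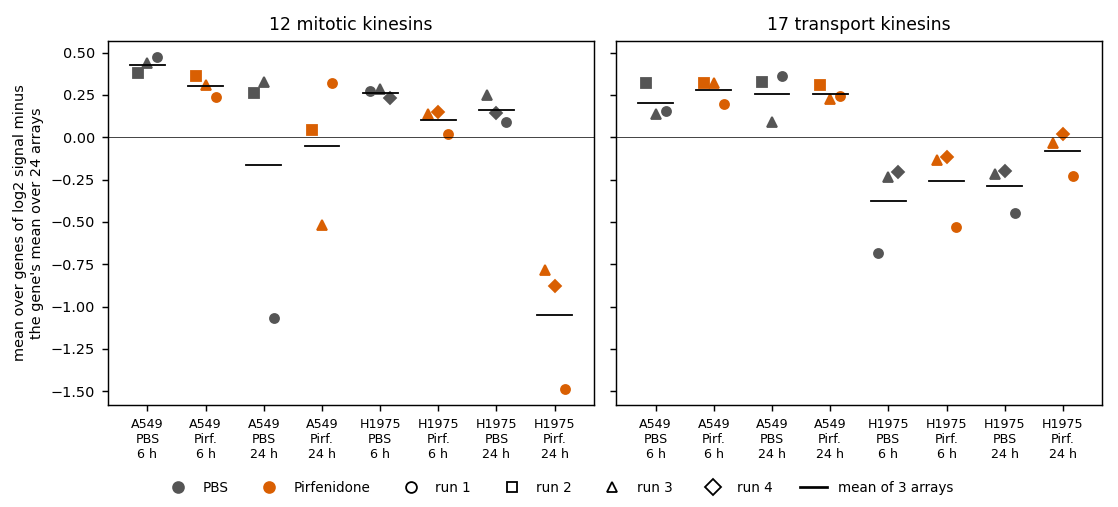
Mean over the 12 mitotic kinesins (left) and the 17 transport kinesins (right) of the log2 signal minus the mean of each gene over 24 arrays, 1 point per array by run, with bars at the mean of 3 arrays; Pirf. is Pirfenidone. The mitotic mean is -0.78, -0.88 and -1.48 in H1975 with Pirfenidone at 24 h, and -1.07 in A549 PBS replicate 3 at 24 h.

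With all arrays the mitotic median in A549 at 24 h was 0.11, with 10 of 12 genes positive. Without PBS replicate 3 it was -0.33, and without both replicate 3 arrays it was -0.51. No kinesin passed in either case. Within runs all 12 mitotic kinesins were higher with Pirfenidone in run 1, which holds both replicate 3 arrays (median 1.49), 11 were lower in run 2 (-0.25) and all 12 were lower in run 3 (-0.81). The transport medians of those pairs were -0.15, -0.0048 and 0.0023.

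The transport kinesins in A549 at 24 h had a median of -0.05. KIF3A read 0.90, 0.72 and 1.11 with PBS and 0.92, 0.16 and 0.96 with Pirfenidone (log2 fold change -0.23). KIF21B read -2.17, -2.25 and -1.21 with PBS and -1.77, -1.87 and -2.44 with Pirfenidone (-0.16). The groups of both genes overlapped. KIF5A read -6.69, -8.36 and -7.70 with PBS and -7.45, -6.37 and -6.39 with Pirfenidone, but was well above background on 0 PBS and 2 treated arrays.

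The same array bears on the comparisons that use it, and all of them, like the A549 values at 24 h, rest on the labels of the replicate 3 arrays as given. In PBS alone, all 12 mitotic kinesins of A549 were lower at 24 h than at 6 h, with a median of -0.59, and none passed, where 0.109% of all probes did. Without PBS replicate 3 the median was -0.10. The difference between the 24 h and 6 h responses of A549 had a mitotic median of 0.24 with all arrays and -0.25 without it, with no kinesin passing in either case, where 0.0294% of all probes passed with all arrays.

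The responses of the lines were compared directly. At 24 h all 12 mitotic kinesins were more negative in H1975 than in A549, with a median difference of -1.35, and none passed, where 0.0252% of all probes passed as lower. KIF11 had -1.62 (SE 0.41, adjusted p = 0.108) and KIF20A -1.89 (SE 0.55, adjusted p = 0.159). With the slide as a random block KIF11, KIFC1, KIF23 and KIF20A passed, with adjusted p of 0.0232, 0.0389, 0.0424 and 0.0492. Without both A549 replicate 3 arrays the median difference was -0.61, and none passed. At 6 h the median difference was -0.06, and none passed, where 0.0336% of all probes did.

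Arrays of the 2 lines never shared a slide, so line and slide cannot be told apart when their levels are compared. With PBS at 6 h, 9 of 38 kinesins passed between H1975 and A549, 2 higher and 7 lower in H1975. At 24 h it was 11, 4 higher and 7 lower. The background was 32.4% of all probes at 6 h and 32.9% at 24 h. The counts rest on the brightest probe of each gene. Other probes of KIF26B (3.80), KIF16B (-1.90) and KIF1B (1.22) met both limits at 6 h, where the brightest probes gave 0.47, -0.29 and 0.46. For KIFC3 it was the reverse, as given below. No mitotic kinesin passed at 6 h, where their median difference was -0.09 and KIF11 was lower in H1975 by a log2 difference of -0.94 (adjusted p = 0.0100). At 24 h KIF15 (1.11) and KIFC1 (1.001) passed as higher in H1975, but without A549 PBS replicate 3, whose label is in question, they had 0.68 and 0.46 and did not pass.

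KIF25, a minus-end kinesin of the centrosome cycle, had the largest difference. With PBS at 6 h it read -6.73, -6.58 and -7.46 in A549, where 1 of 3 arrays was well above background, and -0.67, -0.34 and -0.24 in H1975. The log2 difference was 6.51 at 6 h (SE 0.36, adjusted p = 9.19e-12) and 6.31 at 24 h. Across other settings it was 4.45 to 6.68 at 6 h. KIF5A, another neuronal conventional kinesin, was higher in H1975 as well. It read -6.54, -7.77 and -7.00 in A549 and -5.10, -5.03 and -4.83 in H1975 at 6 h, a log2 difference of 2.11 (SE 0.48, adjusted p = 0.000846). Only 1 of those 3 A549 arrays was well above background, so its size is uncertain. At 24 h no A549 PBS array was well above background. With dim arrays read no lower than the dimmest probe called above background on them, KIF5A was 4.09-fold higher in H1975. Its log2 difference was 0.87 to 3.34 across the other settings, so 4.09 is not a lower bound.

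**Figure D5:**
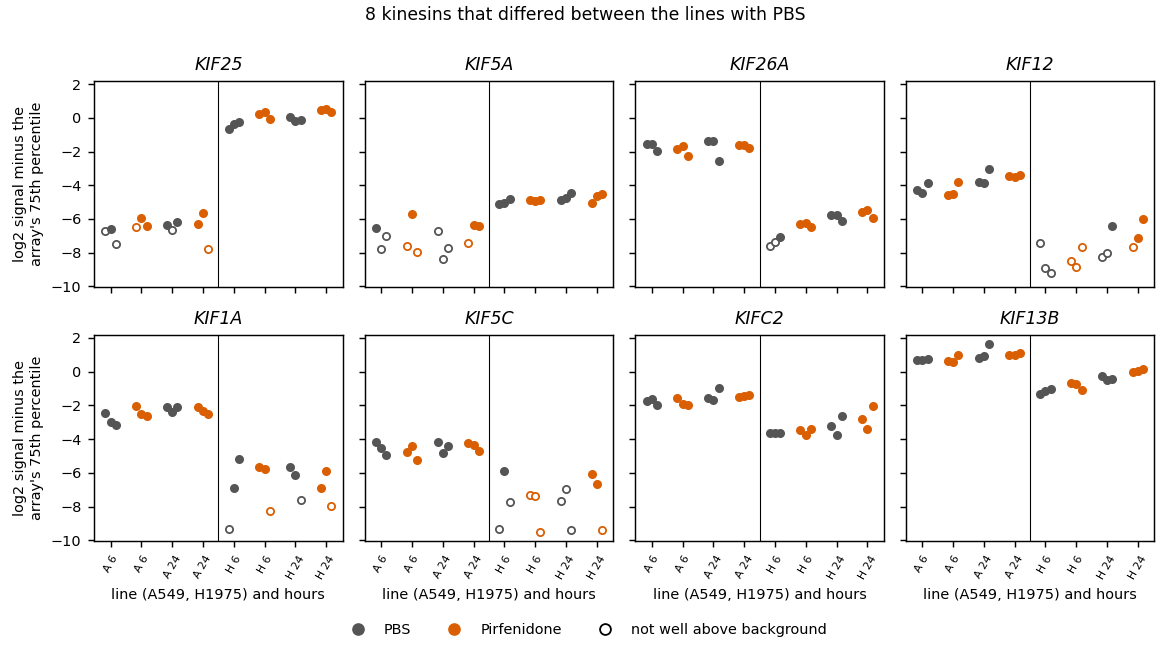
Log2 signal minus the 75th percentile of the array for 8 kinesins that passed between the lines with PBS, 1 point per array by group (A is A549, H is H1975, with the time in h); open points were not well above background. KIF25 lies between -0.67 and 0.55 in H1975 and between -7.81 and -5.66 in A549, and KIF26A between -2.53 and -1.36 in A549 and between -7.61 and -5.48 in H1975.

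KIF26A was lower in H1975, with -1.58, -1.56 and -1.99 in A549 and -7.61, -7.38 and -7.09 in H1975 at 6 h (log2 difference -5.65, SE 0.25, adjusted p = 2.44e-13). Only 1 of those 3 H1975 arrays was well above background, and across other settings the log2 difference was -5.905 to -3.70. At 24 h, when the KIF26A level in H1975 had risen, the log2 difference was -4.12. KIF12, a kinesin of kidney and other epithelia, read -4.31, -4.46 and -3.89 in A549 and -7.43, -8.93 and -9.18 in H1975. No H1975 array of that group was well above background. With dim arrays read as for KIF5A, KIF12 was 9.08-fold lower there. Across other settings its log2 difference was -4.83 to -1.88. At 24 h its log2 difference was -3.96 (adjusted p = 1.49e-06), with 1 of 3 H1975 arrays above background.

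KIF1A, a motor of synaptic vesicle precursors, read -2.46, -2.99 and -3.15 in A549 and -9.34, -6.91 and -5.21 in H1975 at 6 h. The log2 difference was -4.28 (SE 0.80, adjusted p = 0.000141). H1975 replicate 1 was not well above background. The difference was -3.19 without it and -5.26 without H1975 replicate 3, and -2.35 with normexp. KIF5C read -4.16, -4.55 and -4.95 in A549 and -9.31, -5.89 and -7.72 in H1975 (log2 difference -3.08, adjusted p = 0.00383), with 1 of 3 H1975 arrays above background. The difference was -2.25 without H1975 replicate 1 and -3.96 without H1975 replicate 2. At 24 h no H1975 PBS array was well above background. Read as for KIF5A, KIF5C was then 6.49-fold lower in H1975, with log2 differences of -5.01 to -1.37 across other settings. KIF13B, a vesicle motor, read 0.67, 0.67 and 0.76 in A549 and -1.33, -1.13 and -1.03 in H1975 (log2 difference -1.86, SE 0.18). The minus-end motor KIFC2 read -1.71, -1.63 and -1.99 in A549 and -3.66, -3.62 and -3.65 in H1975 (log2 difference -1.87). The groups of these 4 genes did not overlap. Of 23827 probes tested at 6 h, 7531 were lower and 8257 higher in H1975 without overlap, so this is common between the lines. At 24 h KIFC2 had -1.80. KIFC3 had -1.11 and -1.12 at the 2 times by its brightest probe, but a second probe, above background on all 24 arrays, gave -0.28 (adjusted p = 0.217) and -0.34 (adjusted p = 0.126). KIF5B, the ubiquitous form, had log2 differences of -0.80 at 6 h and -0.63 at 24 h, under the limit of 1. A second KIF5B probe on the same transcript gave -0.03 and 0.13, so that direction rests on 1 probe.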

How the data were processed

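The deposited scanner files hold spot intensity values, which the authors made with Agilent Feature Extraction 11.5.1.1, with background subtraction and spot flags. The array design is annotated on hg19. The authors also deposited a table of log2 values, centered on each probe's median over the 24 arrays. Its column medians lay between -0.163 and 0.156, and the sources used here do not give its array scaling. It was used as an alternative (r = 0.9995 with the scanner values, over probes and arrays).

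Outlier and control spots were left out. The log2 processed signal minus each array's 75th percentile over 43118 spots was averaged over the spots of a probe, which gave 34127 probes. A probe counted as above background on an array when a share of 0.5 or more of its spots was. The 23827 probes tested met this in some group with all its 3 arrays. One limma fit (version 3.58.1, R 4.3.3) with 8 group means and 16 residual degrees of freedom gave all tests, adjusted by Benjamini-Hochberg over all probes. Two-sided exact tests of 3 arrays against 3 cannot go below p = 0.1 and were not used. On simulated arrays of 23827 probes for H1975 at 24 h, 85 of 100 probes changed by 1.5 and 97 of 100 changed by 3 on the log2 scale were recovered, with 6 false calls. The simulated noise was independent between probes and arrays, without runs or slides, and smaller changes were not simulated. These rates check the code and do not measure recovery on the real arrays.

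Groups and replicate numbers came from the sample labels. The kinesins, the partner lists and the tests were chosen with earlier results of these data known. Of the 41 kinesins, 39 were matched to RefSeq by accession and 2 by symbol. Values on every array are given for kinesins that passed (at most 8 a comparison) and for the 3 mitotic and 3 transport kinesins with the largest changes in each drug comparison. Line differences at 24 h are given as fold changes. KIF17, KIF24, KIF27, KIF3C, KIF5B, KIF2A, KIF1C and KIF3B were added after their values were seen. Alternatives covered background correction, normalization, the authors' values, filters, blocks, adjustment, a plain t-test paired by run, probe choice and omitted arrays. Leaving out the A549 replicate 3 pair with the run as a block was added after seeing the data. Fold changes are Pirfenidone minus PBS, line differences H1975 minus A549 and time differences 24 h minus 6 h.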

Additional observations from a re-analysis of the deposited data

How the results depend on the processing

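Of 270 alternative counts of kinesins that passed, 233 stayed within 1.5 times the full fit and 37 moved. Of 270 mitotic medians 261 moved by less than the spread between replicates, as did 265 of 270 transport medians. Of 2238 values of single kinesins 121 lost and 16 gained their call, and 0 reversed. In H1975 at 24 h, 10 kinesins passed in the full fit, where 451 of all probes did. It was 4 with normexp (172 of all probes), 1 with only the arrays compared (143) and 0 with the Holm adjustment (33). A plain t-test paired by run passed 0 of all probes after Benjamini-Hochberg, so its 0 kinesins says nothing about them. By its unadjusted p 9 kinesins and 524 of all probes passed. The study names a paired t-test for selected genes. Its rule for the whole array, a moderated t-test with a Westfall-Young family-wise error rate and a fold limit, was not run. Leaving out 1 array gave 0 to 9, and a transport median of 0.077 to 0.24. In H1975 at 6 h the count of 1 became 0 with normexp, quantile normalization, the authors' values, no filter, only probes above background on all arrays, only the arrays compared, Holm, the paired t-test with Benjamini-Hochberg and each omitted array, and 3 without a fold limit. With normexp its mitotic and transport medians were -0.31 and 0.41. In H1975 PBS the count of 1 between times became 0 with normexp, only probes above background on all arrays, only the arrays compared and Holm. Between the lines with PBS, 9 at 6 h and 11 at 24 h became 3 and 5 with only probes above background on all arrays (fewer kinesins tested), 5 and 5 with Holm, and 17 and 22 without a fold limit. The mitotic median at 6 h went from -0.09 to 0.0073 with that filter, to -0.355 with the replicate block and to -0.011 with the mean of all probes. For the line difference in the response, 0 became 1 at 6 h with the run as a block and with the slide as a random block, and 4 at 24 h with the slide. Without both A549 replicate 3 arrays at 24 h, with or without the run as a block, the mitotic median was -0.61 for the line difference and -0.34 for the time difference in A549. Leaving out 1 array gave 0 to 1 kinesins and a transport median of 0.032 to 0.33 for the line difference at 24 h. It gave -0.21 to -0.12 for the mitotic median of A549 at 6 h. For the transport median between lines it gave -0.28 to -0.085 at 6 h and -0.45 to -0.24 at 24 h. The cause of these changes was not tested.

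The replicate numbers did not pair the samples in every comparison. The correlations of deviations between PBS and Pirfenidone samples of 1 number were 0.70, 0.58 and 0.64 in A549 (6 h) and 0.39, 0.08 and -0.10 (24 h). In H1975 they were -0.48, 0.43 and -0.68 (6 h) and 0.46, 0.53 and 0.72 (24 h). By run, the correlations in H1975 at 6 h were 0.82, 0.50 and 0.70, so those samples paired by run and not by number. Elsewhere number and run pair the same samples. With the replicate block, and with the run as a block, 11 kinesins passed in H1975 at 24 h. With 3 arrays per group, kinesins near background, such as KIF1A, KIF5A, KIF5C, KIF12 and KIF18B, had the least certain values.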

Other observations

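Among the transport partners, the kinesin light chain KLC3 was higher in H1975 than in A549 with PBS. At 6 h it read -4.38, -3.74 and -3.36 in A549 and -0.40, -1.39 and -1.35 in H1975, a log2 difference of 2.78 (SE 0.41, adjusted p = 9.61e-06 in limma), and at 24 h the log2 difference was 3.15. RHOT1, which ties mitochondria to kinesin, was lower in H1975 at 24 h, with -1.90, -2.36 and -1.43 in A549 and -3.35, -3.01 and -3.04 in H1975 (log2 difference -1.24, adjusted p = 2.80e-05). The value of -1.43 is from A549 PBS replicate 3, whose label is in question. At 6 h the RHOT1 log2 difference was -0.90, under the limit of 1. Of the 11 transport partners 1 passed between the lines at 6 h and 2 at 24 h, where 32.4% and 32.9% of all probes did. KLC1 had log2 differences of 0.62 and 0.68 at the 2 times, under the limit of 1. None of the 11 transport partners passed in any of the 4 drug comparisons.

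A second KIF5A probe, on transcript NM_004984, was well above background on 7 of 24 arrays and differed from the brightest probe. In H1975 at 24 h it had a log2 fold change of 1.21 (adjusted p = 0.0186), while the brightest probe had -0.06 (adjusted p = 0.971). Between the lines with PBS both probes were higher in H1975, with 1.60 and 2.11 at 6 h.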
